A study of Mus musculus with 42 samples.

Results

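The genes described here are Vipr2, Wdr60, Esyt2, Ncapg2, Ptprn2 and Fgf14, 6 of the 20661 genes in the tables, chosen by name because they lie at the places where published mapping puts the transgenes of the rTg4510 mouse. That mouse, a model of tauopathy, carries an activator transgene driven by the Camk2a promoter and a responder transgene that encodes human tau with a disease mutation, so that mutant tau is made in forebrain neurons. Published mapping places the activator on chromosome 12, with a loss of mouse sequence at Vipr2, Wdr60, Esyt2, Ncapg2 and Ptprn2, and the responder on chromosome 14 within Fgf14, also with a loss of sequence. This is background, and the tables hold no value that shows an insertion.

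The rTg4510 table held bulk frontal cortex RNA of 3 libraries labelled rTg4510- and 3 labelled rTg4510+, all with the mark 8mo in their titles. The miR-142 table held bulk prefrontal cortex RNA of 4 miR-142 null, 4 heterozygous and 4 wild-type libraries, and the labels give no age for them. Their titles hold a letter, F or M, and a number whose meaning the labels do not give. The number is 14 in all null, 14 or 13 in heterozygous and 13 or 15 in wild-type libraries. Between null and wild type it cannot be told apart from genotype. The third table held RNA bound to tagged ribosomes of oligodendrocytes, isolated by translating ribosome affinity purification (TRAP). Its 24 libraries were 7 of frontal cortex, 6 of white matter below the cortex, 6 of cerebellum and 5 of spinal cord, and the labels used here do not name the line or the promoter that tags the ribosomes. The labels do not say which of the transgenes, if any, the rTg4510- mice carried, whether the insertions were present in 1 or both copies, or whether each library is another animal, so p-values speak only of the spread among libraries. Values are reads per kilobase of gene model and M reads (RPKM), and human tau was not counted on a row of its own.

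Vipr2 encodes VPAC2, a receptor for the neuropeptides VIP and PACAP that raises cyclic AMP. Wdr60, now also called Dync2i1, is an intermediate chain of dynein-2, the motor that carries cargo back from the tip of the primary cilium. Esyt2 is an extended synaptotagmin that tethers the endoplasmic reticulum to the plasma membrane and moves lipids between them. Ncapg2 is a subunit of condensin II, which compacts chromosomes. Ptprn2, also called phogrin, is a catalytically weak receptor phosphatase of the membrane of dense core vesicles in neurons and endocrine cells. Fgf14 is a fibroblast growth factor homologous factor that stays inside the cell and binds neuronal sodium channels at the axon initial segment.

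In mm10 (GRCm38), with positions from GENCODE vM21, the first 5 of these genes stand next to each other on chromosome 12. Vipr2 (chr12:116077726-116146261, plus strand) is followed by Wdr60 (chr12:116206262-116263022, minus strand), Esyt2 (chr12:116281196-116391050, plus strand), Ncapg2 (chr12:116405402-116463731, plus strand) and Ptprn2 (chr12:116485720-117276849, plus strand). The gaps between neighbours are 60 kb between Vipr2 and Wdr60, 18.2 kb between Wdr60 and Esyt2, 14.4 kb between Esyt2 and Ncapg2, and 22.0 kb between Ncapg2 and Ptprn2. Ptprn2 spans 791 kb and Fgf14 (chr14:123977907-124677127, minus strand) 699 kb. The RefSeq start of Fgf14 used for its promoter window lies inside the GENCODE span, at chr14:124192497-124192796, so the gene has more than 1 start, and its transcripts from different starts are not told apart in these values. Antisense or other transcripts overlap Vipr2, Wdr60, Ptprn2 and Fgf14 in the annotation, and the sources used here do not say whether strand was used in counting.

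The promoter windows of the 5 genes on chromosome 12 are shown because these genes are neighbours that each passed the test between rTg4510+ and rTg4510- libraries. Each runs from 250 bases before to 50 bases after the RefSeq start (GRCm38.p6), 5′ to 3′ on the gene's strand, with each CG dinucleotide in capitals.
Vipr2 promoter, chr12:116077476-116077775, plus strand: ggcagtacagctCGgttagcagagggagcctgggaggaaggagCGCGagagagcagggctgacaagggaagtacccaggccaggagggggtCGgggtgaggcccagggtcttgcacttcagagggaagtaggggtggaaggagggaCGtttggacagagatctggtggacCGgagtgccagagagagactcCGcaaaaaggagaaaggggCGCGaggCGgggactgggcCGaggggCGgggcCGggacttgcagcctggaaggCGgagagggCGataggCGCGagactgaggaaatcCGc
Wdr60 promoter, chr12:116262976-116263275, minus strand: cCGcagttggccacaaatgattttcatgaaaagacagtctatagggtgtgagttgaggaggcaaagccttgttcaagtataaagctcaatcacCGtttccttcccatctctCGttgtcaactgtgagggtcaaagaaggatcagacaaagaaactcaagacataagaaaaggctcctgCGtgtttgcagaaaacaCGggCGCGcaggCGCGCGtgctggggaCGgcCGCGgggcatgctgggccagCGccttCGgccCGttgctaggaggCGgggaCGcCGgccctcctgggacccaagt
Esyt2 promoter, chr12:116280972-116281271, plus strand: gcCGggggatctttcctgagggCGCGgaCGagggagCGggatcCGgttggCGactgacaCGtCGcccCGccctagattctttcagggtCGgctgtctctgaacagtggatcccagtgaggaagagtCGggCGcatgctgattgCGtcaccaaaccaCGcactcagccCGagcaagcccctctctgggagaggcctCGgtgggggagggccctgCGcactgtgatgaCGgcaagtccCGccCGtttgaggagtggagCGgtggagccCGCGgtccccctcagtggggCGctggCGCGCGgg
Ncapg2 promoter, chr12:116405186-116405485, plus strand: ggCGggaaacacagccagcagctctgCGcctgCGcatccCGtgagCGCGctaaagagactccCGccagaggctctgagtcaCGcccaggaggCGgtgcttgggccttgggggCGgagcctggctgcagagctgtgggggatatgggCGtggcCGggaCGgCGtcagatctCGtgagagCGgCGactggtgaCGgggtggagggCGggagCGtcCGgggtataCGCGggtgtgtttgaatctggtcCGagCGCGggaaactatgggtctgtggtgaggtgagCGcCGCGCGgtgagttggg
Ptprn2 promoter, chr12:116485470-116485769, plus strand: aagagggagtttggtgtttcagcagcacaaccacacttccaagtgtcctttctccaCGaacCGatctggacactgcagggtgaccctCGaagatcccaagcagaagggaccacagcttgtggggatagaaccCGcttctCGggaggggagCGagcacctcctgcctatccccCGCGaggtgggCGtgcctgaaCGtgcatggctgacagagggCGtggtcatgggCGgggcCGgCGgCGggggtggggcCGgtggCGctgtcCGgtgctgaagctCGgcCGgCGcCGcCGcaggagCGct
The windows hold 18 CG in Vipr2, 19 in Wdr60, 28 in Esyt2, 30 in Ncapg2 and 24 in Ptprn2, against a median of 7 over 32851 promoter windows of the same length. As many as 30 CG are found in 11.7% of all windows and as many as 18 in 29.7%. The window of Fgf14 holds 12. The motif GGGCGG, searched on both strands, has 1 match in Vipr2, 2 in Esyt2, 2 in Ncapg2, 1 in Ptprn2 and 0 in Wdr60, and 35.7% of all windows hold it. The motif TATAAA has 1 match in Wdr60 and 0 in the other windows on chromosome 12 (13.6% of all windows hold it), and CCAAT has 0 in all 5 (37.4% of all windows). These matches describe the letters only.

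Sequencing depth, worked out from the RPKM steps of low genes, came to 19.7 to 23.8 M reads in rTg4510- libraries, 13.9 to 27.02 in rTg4510+, 22.8 to 31.8 in the miR-142 table and 3.26 to 36.8 in the TRAP table. Several measures separated the rTg4510 groups or single libraries beside genotype. The Y-linked gene Ddx3y stood at 46.8 to 54.5 RPKM in the 3 rTg4510- libraries and 0.110 to 0.118 in the 3 rTg4510+ libraries, so sex and genotype cannot be told apart there. The summed level of 8 microglial markers was 291 to 336 RPKM in rTg4510- and 652 to 832 in rTg4510+ libraries. The summed level of 9 genes of olfactory bulb neurons was 53.3 to 78.7 RPKM in rTg4510-, 97.6 in rTg4510+ replicate 1, and 839 and 786 in replicates 2 and 3. The summed level of 7 genes of striatal neurons was 1286 RPKM in rTg4510- replicate 2 and 99.8 and 133 in replicates 1 and 3, beside 411 to 689.5 in rTg4510+. Choroid plexus Ttr stood at 2120 and 455 RPKM in rTg4510- replicates 1 and 3 and at 8.81 to 22.6 in the other libraries. Both neuronal lists were chosen after the values of the genes were seen. As a check of the labels, mouse Mapt stood at 389, 361 and 410 RPKM in rTg4510- and 429, 362 and 349 in rTg4510+ libraries. Prnp, whose untranslated sequence is part of the vector of the tau transgene, stood at 1266, 984 and 1154 against 2357, 2161 and 2047, with no overlap between the groups. The length implied for Prnp, 762 bp, equals its coding length, so whether untranslated reads count in its values is not known. The source of its rise was not tested.

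In rTg4510+ cortex, 4 neighbouring genes on chromosome 12 fell to between 44.8% and 61.5% of the mean rTg4510- RPKM, the gene beside them, Vipr2, rose, and Fgf14 on chromosome 14 did not pass the test. Fold changes and tests came from limma on log2(RPKM + 0.5) over all 13972 genes tested, with p-values adjusted by Benjamini-Hochberg and a threshold of 0.05; on this scale the changes of low genes are understated, and the percentages given with intervals are ratios of RPKM + 0.5. Among all genes, 806 (5.77%) rose and 231 (1.65%) fell, and of the 6 genes 1 rose and 4 fell. With other scalings the split of all genes was 537 higher and 388 lower (median-of-ratios), 433 and 325 (quantile) or 487 and 389 (voom), and the median log2 fold change of all genes was 0.09 as deposited and -0.01 with median-of-ratios or quantile scaling. Libraries are bulk tissue, in which fewer cells of a type and less RNA per cell cannot be told apart.

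Esyt2 stood at 51.1, 49.3 and 47.5 RPKM in the rTg4510- libraries and at 22.9, 26.2 and 23.0 in the rTg4510+ libraries. The groups did not overlap, and the highest rTg4510+ library was far below the lowest rTg4510- library. The share of all genes whose groups do not overlap is not given here, so the lack of overlap in the genes named cannot be weighed. Esyt2 fell by 1.02 ± 0.09 (SE) on the log2 scale, to 49.2% of the rTg4510- value (95% confidence interval 42.7% to 56.8%), with an adjusted p of 0.00124 (limma). By p it ranked 34 of 13972 genes, and 8 among the 231 genes that fell.

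Ptprn2, the gene with the highest mean of the 6 in both rTg4510 groups, stood at 171, 158 and 182 RPKM in rTg4510- and 87.6, 75.0 and 73.7 in rTg4510+ libraries. Again all 3 rTg4510+ libraries were low and none overlapped the other group. It fell by 1.11 ± 0.10 on the log2 scale, to 46.3% (39.6% to 54.0%), with an adjusted p of 0.00124 (limma). Esyt2 and Ptprn2 kept their calls in each of the alternatives with 1 library left out.

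Ncapg2 was low in cortex, at 3.45, 2.88 and 3.12 RPKM in rTg4510- and 1.21, 1.58 and 1.44 in rTg4510+ libraries, which rest on 193 to 280 and 68 to 139 reads. The 3 rTg4510+ libraries were the 3 lowest. Ncapg2 fell by 0.94 ± 0.17 on the log2 scale, to 52.3% (40.1% to 68.1%) of RPKM + 0.5 and 44.8% of the mean RPKM, with an adjusted p of 0.0174 (limma). Wdr60 stood at 13.1, 12.98 and 13.6 RPKM in rTg4510- and 6.47, 8.67 and 9.26 in rTg4510+ libraries. Its rTg4510- libraries were within 1 RPKM of each other, its rTg4510+ libraries were spread more widely, and the groups did not overlap. Wdr60 fell by 0.68 ± 0.15 on the log2 scale, to 62.3% (49.3% to 78.6%), with an adjusted p of 0.0316 (limma). The calls of both genes were lost without any 1 of 4 libraries: the adjusted p of Ncapg2 was 0.0832 without rTg4510- replicate 1, 0.0686 without rTg4510- replicate 3, 0.0584 without rTg4510+ replicate 2 and 0.0672 without replicate 3, and that of Wdr60 was 0.111, 0.108, 0.0923 and 0.0607 in the same order.

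Vipr2 was near the lower limit of the table in the rTg4510- libraries, at 0.835, 0.777 and 0.934 RPKM from 20 to 26 reads, and stood at 2.54, 11.7 and 14.5 RPKM in the rTg4510+ libraries. All 3 rTg4510+ libraries were above all rTg4510- libraries, and replicate 1 was much lower than the other two. Vipr2 rose by 2.61 ± 0.57 on the log2 scale, with an adjusted p of 0.0426 (limma), and ranked 20 of 13972 from the top by fold change. The adjusted p was 0.187 with voom on recovered reads, 0.0548 with a pseudocount of 1 and 0.0648 with quantile normalization. Leaving out 1 library ended the call in 5 of 6 cases: the adjusted p was 0.145, 0.0787 and 0.141 without rTg4510- replicates 1, 2 and 3, and 0.139 and 0.122 without rTg4510+ replicates 2 and 3.

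Fgf14 stood at 44.4, 102 and 71.3 RPKM in rTg4510- and 54.7, 62.8 and 74.5 in rTg4510+ libraries. The rTg4510+ values lay inside the range of the rTg4510- values, which were spread more widely than in any other group of cortex libraries. Its log2 fold change was -0.11 ± 0.29, or 92.4% of the rTg4510- value with a 95% interval of 57.2% to 149%, and its adjusted p was 0.838 (limma). The lower bound of 57.2% is below the estimate of 62.3% for Wdr60, so with this spread a fall as large as that of Wdr60 could not be told from none. The rTg4510- library with the highest Fgf14, replicate 2, was the one with the highest summed striatal genes, and the lowest, replicate 1, was the one with the highest Ttr. The part of these genes in the Fgf14 values was not tested.

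**Figure D1:**
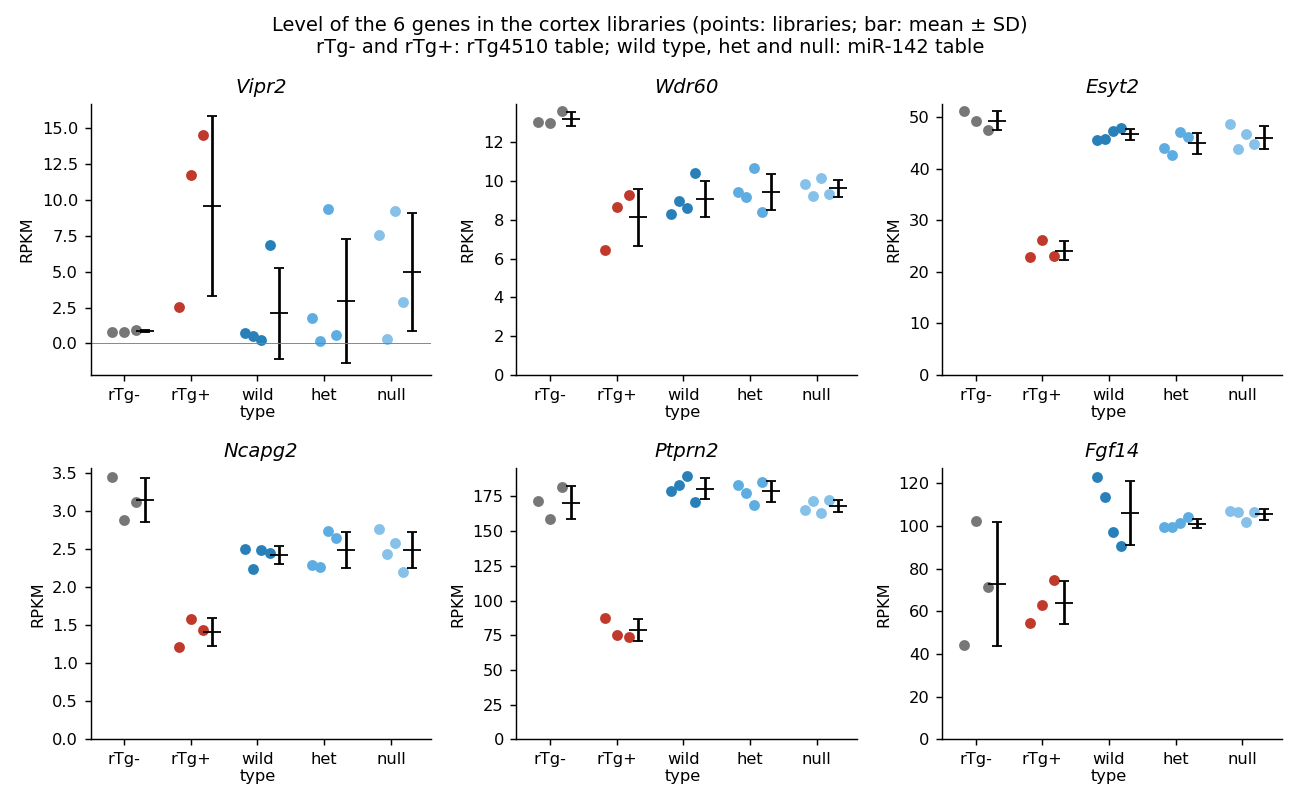
Level in RPKM (vertical axes) of the 6 genes in each cortex library, in rTg4510- and rTg4510+ libraries (3 each) and in wild-type, miR-142 heterozygous and miR-142 null libraries (4 each); points are libraries and bars are the mean ± SD. Wdr60, Esyt2, Ncapg2 and Ptprn2 are lower in all rTg4510+ than in all rTg4510- libraries, while Vipr2 varies from 0.198 to 14.5 RPKM and Fgf14 overlaps between the rTg4510 groups.

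On chromosome 12, the tested genes nearest to the 5 on either side did not pass the test. The nearest tested gene before Vipr2, the zinc finger gene Zfp386, ends 0.0144 Mb from it and had 34.2 ± 2.76 RPKM in rTg4510- and 37.1 ± 9.999 in rTg4510+ libraries (SD, n = 3), a log2 fold change of 0.08 ± 0.18 with an adjusted p of 0.805 (limma). The nearest tested gene after Ptprn2, Rapgef5, a Rap guanine nucleotide exchange factor 0.240 Mb away, had 52.7 ± 5.41 and 39.8 ± 5.27 RPKM, a log2 fold change of -0.40 ± 0.12 with an adjusted p of 0.0831. Within 3 Mb of the 5 genes 12 other genes were tested, and 0 passed the test (limma, with 3 at an unadjusted p under 0.05), with log2 fold changes from -0.40 to 2.95 and a median of 0.18. Among all 13972 genes, 5.77% rose, 1.65% fell and 3736 had an unadjusted p under 0.05. With shares this small, a count of 0 among 12 sets no edge to the group. The top of that range was Sp8, a transcription factor of olfactory bulb interneurons, at 1.15, 2.58 and 0.969 RPKM in rTg4510- and 4.14, 26.2 and 27.3 in rTg4510+ libraries. Sp8 had an adjusted p of 0.068 and was named after its values were seen. On chromosome 14, all tested neighbours of Fgf14 within 3 Mb lie on 1 side. The nearest, Itgbl1, which encodes an integrin beta-like protein, had a log2 fold change of -0.30 ± 0.37 with an adjusted p of 0.638. Of 14 neighbours tested there 1 passed: Gpr183, an oxysterol receptor of immune cells, rose from 1.71 ± 0.394 to 3.55 ± 0.260 RPKM, a log2 fold change of 0.89 ± 0.18 with an adjusted p of 0.0299 (limma).

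Along the chromosomes, the median log2 fold change was taken over every run of 5 consecutive tested genes, 13425 runs in all. Chromosome Y gave no run of 5 and so had no part in this ranking. The run from Vipr2 to Ptprn2 had the lowest median, -0.94, and the next 2 runs, each shifted outward by 1 gene, had the same median because it was set by Ncapg2. Of all runs, 62 held at least 2 genes that fell, 4 held at least 3, and all 4 of these included genes of the chromosome 12 group. These 4 runs overlap, each holds Esyt2 and Ncapg2, and together they are 1 locus. The run length of 5 equals the number of the genes on chromosome 12, and the rank depends on it. With runs of 4 genes, the run from Wdr60 to Ptprn2 came 2 of 13446, at -0.98, behind the run of Kdm5d, Eif2s3y, Uty and Ddx3y on chromosome Y at -5.57. Across the miR-142 genotypes, null against wild type, 0 of the 13 tested neighbours on chromosome 12 and 0 of the 13 on chromosome 14 passed the test (limma, with 2 and 3 at an unadjusted p under 0.05). Of all 13879 genes 65 (0.468%) passed there, and 3134 had an unadjusted p under 0.05. With a share this small, counts of 0 set no contrast with the rTg4510 table.

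**Figure D2:**
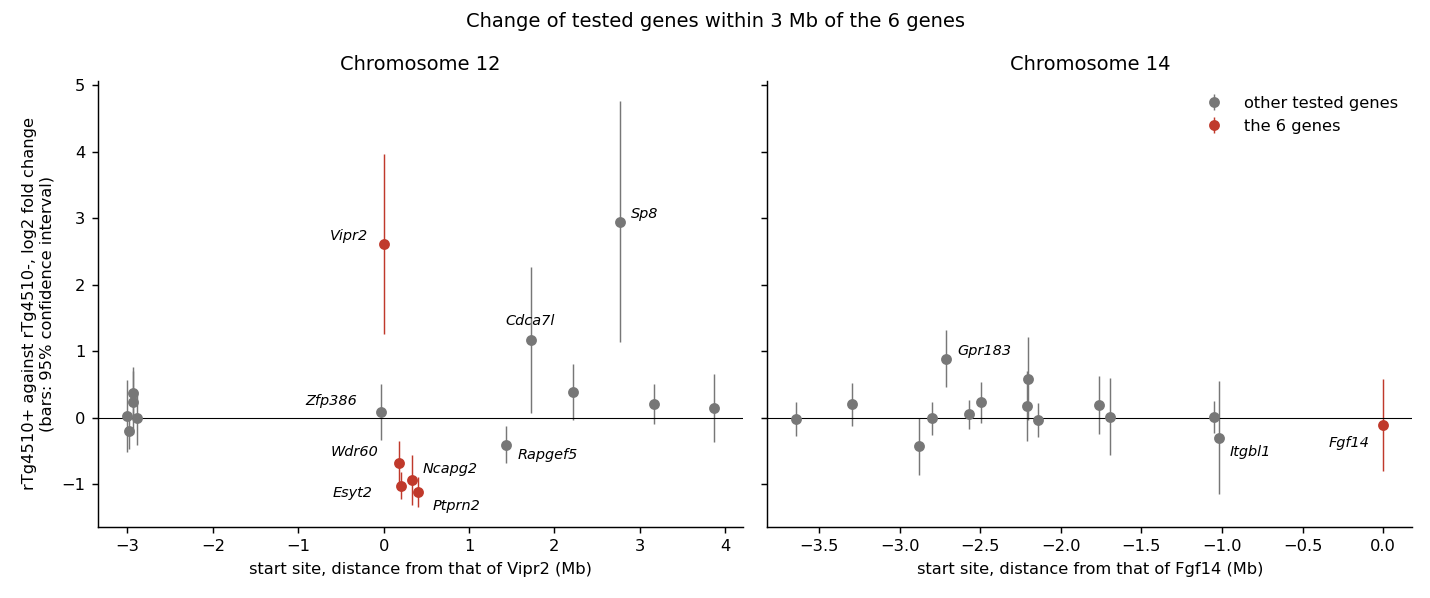
Log2 fold change of rTg4510+ against rTg4510- (vertical axis, with 95% confidence intervals) of every tested gene within 3 Mb, by the distance of its start from that of Vipr2 on chromosome 12 or Fgf14 on chromosome 14 (horizontal axes, Mb). Wdr60, Esyt2, Ncapg2 and Ptprn2 lie between -0.68 and -1.11, with Zfp386 at 0.08 on one side and Rapgef5 at -0.40 on the other.

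Families and pathways of the 6 genes were set beside them, by counts over lists that include the gene itself; the median of all genes tested was 0.09. Of 12 extended synaptotagmin and membrane contact genes tested, Esyt2 was the 1 that fell and 0 rose, with a list median of -0.01. Of 7 condensin subunits tested, Ncapg2 was the 1 that fell and 0 rose (median -0.02). Of 16 dynein-2 and intraflagellar transport genes, Wdr60 was the 1 that fell and 0 rose (median -0.01). Among 14 dense core vesicle genes 2 fell and 1 rose, with a median of 0.00. Beside Ptprn2, the prohormone convertase Pcsk2 fell from 305 ± 14.1 to 212 ± 42.7 RPKM (log2 fold change -0.55 ± 0.13, adjusted p = 0.0496 by limma), and the granin Scg2 rose from 162 ± 50.6 to 381 ± 79.5 (1.25 ± 0.24, adjusted p = 0.0272).

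Of 5 VIP and PACAP genes tested, Vipr2 and the ligand Vip rose and 0 fell (median 0.66). Vip stood at 81.5 ± 2.81 RPKM in rTg4510- and 129.6 ± 8.94 in rTg4510+ libraries, a log2 fold change of 0.66 ± 0.08 with an adjusted p of 0.00420 (limma). Of 12 homologous factor and sodium channel genes 3 fell and 0 rose (median -0.26), and Fgf14 was not among them. Fgf13, another intracellular factor that binds sodium channels, fell from 70.6 ± 8.80 to 38.1 ± 1.39 RPKM (log2 fold change -0.87 ± 0.11, adjusted p = 0.00408). The axonal sodium channel Scn8a fell from 96.2 ± 9.69 to 66.1 ± 5.39 RPKM (-0.54 ± 0.10, adjusted p = 0.0224), and the beta subunit Scn3b from 308 ± 41.9 to 221 ± 11.1 (-0.47 ± 0.11, adjusted p = 0.0405).

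Markers of cell types moved with genotype in the same libraries. Of 8 microglial markers 6 rose and 0 fell (median 1.13), and of 7 astrocyte markers 3 rose and 0 fell (median 0.37), among them Gfap, from 126 ± 34.8 to 789 ± 74.6 RPKM. Of 8 neuronal markers Camk2a was the 1 that fell, from 903 ± 108 to 445 ± 109 RPKM (log2 fold change -1.04 ± 0.17, adjusted p = 0.0142 by limma), and 0 rose (median -0.18). The summed neuronal markers were 7326 to 7800 RPKM in rTg4510- and 6458 to 6963 in rTg4510+ libraries. Snap25 was the largest part of these sums, with means of 3710 and 3191 RPKM. The mean log2 level, which weighs each marker equally, overlapped between the groups. It was 8.90, 9.04 and 8.93 in rTg4510- and 8.92, 8.92 and 8.89 in rTg4510+ libraries. Gad1 and Gad2 of this list had positive log2 fold changes (1.07 and 0.87) without passing the test (adjusted p = 0.131 and 0.204 by limma). The others of the list had negative ones. Of 5 ependymal and choroid plexus markers 1 rose, and 0 of 8 oligodendrocyte, 0 of 4 precursor and 0 of 4 endothelial markers passed the test. The part of these cell types in the values of the 6 genes was not tested.

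Libraries with high Vipr2 also had high levels of genes of olfactory bulb neurons in both cortex tables. That list was chosen after the values were seen. In the rTg4510 table, the 2 libraries with Vipr2 at 11.7 and 14.5 RPKM were those with Eomes, a transcription factor of olfactory bulb projection neurons, at 41.8 and 42.8 RPKM, and Eomes stood at 0.0444 to 0.663 in the other 4. Among the other 4, rTg4510+ replicate 1 had Vipr2 at 2.54 RPKM and summed olfactory bulb genes of 97.6. The rTg4510- libraries had Vipr2 at 0.777, 0.835 and 0.934 RPKM beside sums of 78.7, 63.0 and 53.3, the reverse order. In the miR-142 table, 6 libraries had Vipr2 above 1 RPKM, from 1.77 to 9.39, with summed olfactory bulb genes of 104 to 389 RPKM. The other 6 had Vipr2 at 0.198 to 0.722 RPKM and summed olfactory bulb genes of 32.2 to 53.2. The libraries with high Vipr2 were replicates 1, 3 and 4 of miR-142 null, replicates 1 and 3 of the heterozygotes and replicate 4 of wild type, so they crossed the genotypes.

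The mean level of the olfactory bulb genes was added as a term in the model, an alternative chosen after seeing the data. The log2 fold change of Vipr2 in rTg4510+ was then 0.76 with an adjusted p of 0.341 (limma). The summed level of these genes was 53.3 to 78.7 RPKM in rTg4510- and 97.6 to 839 in rTg4510+ libraries, with no overlap. The term thus largely shares its differences with genotype, and the fit called 89 of all genes instead of 1037. It can hardly tell the term from genotype, so no conclusion is drawn from calls lost in it. In that fit Esyt2 was at -1.11 with an adjusted p of 0.0210 and Ptprn2 at -0.88 with 0.0279, while Wdr60 was at -1.06 with 0.0588 and Ncapg2 at -1.12 with 0.135. In rTg4510+ replicate 1, the library with low olfactory bulb genes, Wdr60 and Ncapg2 were at their lowest, 6.47 and 1.21 RPKM. Esyt2 was at 22.9, and Ptprn2, at 87.6, was the highest of its group. Without rTg4510+ replicates 2 and 3, which leaves replicate 1 alone in its group and takes its spread from the other group, Esyt2 was at -1.09 (adjusted p = 0.0449), Ptprn2 at -0.96 (0.0613), Wdr60 at -0.98 (0.0845), Ncapg2 at -1.09 (0.174) and Vipr2 at 1.17 (0.174).

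**Figure D3:**
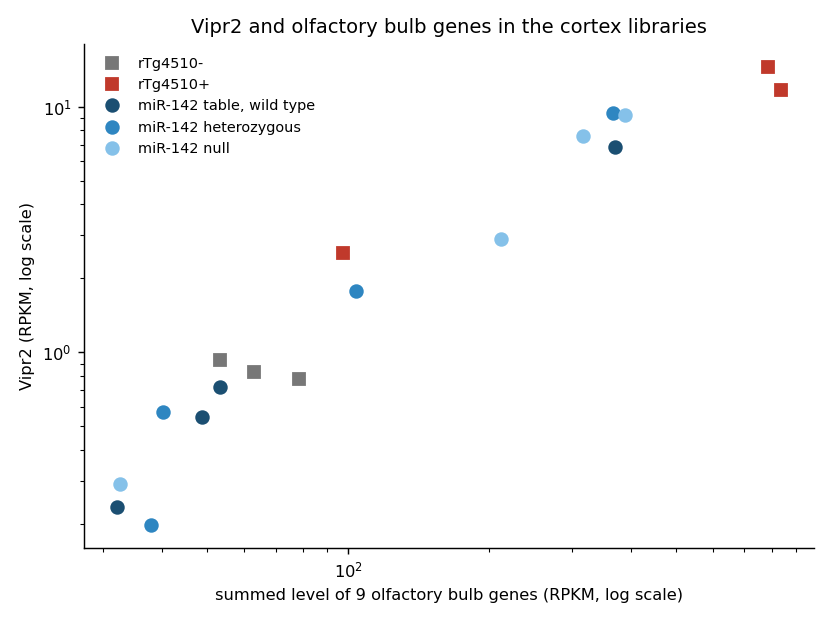
Vipr2 (vertical axis, RPKM, log scale) against the summed level of 9 olfactory bulb genes (horizontal axis, RPKM, log scale) in the 6 rTg4510 (squares) and 12 miR-142 (circles) cortex libraries. Libraries with Vipr2 above 1 RPKM have sums of 97.6 to 839 RPKM and come from every group but rTg4510-; the others have sums of 32.2 to 78.7.

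In the miR-142 table the 4 genes that fell in rTg4510+ cortex varied little. Over the 12 libraries Esyt2 ranged from 42.6 to 48.6 RPKM with a median of 45.9, Ptprn2 from 163 to 189 with 175, Wdr60 from 8.32 to 10.7 with 9.29, and Ncapg2 from 2.20 to 2.76 with 2.47. Fgf14 ranged from 90.6 to 123 RPKM with a median of 103. The coefficient of variation over these libraries was 3.93% for Esyt2, 4.77% for Ptprn2, 7.70% for Ncapg2, 7.99% for Fgf14, 8.20% for Wdr60 and 112% for Vipr2. For each of the 6 genes the values of the 3 miR-142 genotypes overlapped.

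None of the 6 genes passed the test in any of the 3 contrasts of miR-142 genotype (limma), and the unadjusted p was under 0.05 once, for Ptprn2 between null and wild type (0.0493). Of all 13879 genes, 65 (0.468%) passed between null and wild type, where 3134 had an unadjusted p under 0.05, 0 (0%) between heterozygous and wild type, where 1008 had an unadjusted p under 0.05, and 0 (0%) between null and heterozygous, where 456 did. The count of 65 ranged from 0 to 697 without 1 library. Between null and wild type the log2 fold change was -0.02 ± 0.05 for Esyt2, -0.10 ± 0.05 for Ptprn2, 0.09 ± 0.09 for Wdr60, 0.03 ± 0.10 for Ncapg2, 0.00 ± 0.08 for Fgf14 and 1.23 ± 1.10 for Vipr2. The 95% interval reached -0.13 for Esyt2 and -0.20 for Ptprn2 at its lower end, and for Vipr2 it ran from -1.24 to 3.70.

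The miR-142 table also held libraries with both kinds of Ddx3y level, which followed the letters F and M of the titles. Ddx3y was 0 to 0.0797 RPKM in 4 libraries with F and 50.4 to 63.1 in 8 with M. Esyt2 was 45.6 to 48.6 RPKM in the F libraries and 42.6 to 47.8 in the M libraries, and Ptprn2 was 165 to 186 and 163 to 189. Wdr60 was 8.32 to 9.85 and 8.61 to 10.7 RPKM, and Ncapg2 2.24 to 2.76 and 2.20 to 2.73. The ranges of all 4 genes overlapped between the letters. The F libraries were replicate 1 of null, replicate 4 of the heterozygotes and replicates 1 and 2 of wild type, so letter and genotype are unevenly mixed. A part of sex in the rTg4510 changes was not tested. Medians in F and M libraries were 45.9 and 45.8 RPKM for Esyt2, 181 and 172 for Ptprn2, and 2.57 and 2.45 for Ncapg2. Wdr60 was lower in F, at 8.68 against 9.41 RPKM, as was Vipr2, at 0.646 against 2.33, and Fgf14 was higher, at 110 against 100.5. The tables were normalized separately, so levels across them are set side by side only: the rTg4510- mean was 1.06 times the miR-142 wild-type mean for Esyt2, 0.944 for Ptprn2, 1.30 for Ncapg2 and 1.46 for Wdr60, and the rTg4510+ mean was 0.516, 0.436, 0.583 and 0.896 times it.

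In the TRAP libraries, the 6 genes had different orders over the regions. Of the 6, 3 differed between regions in limma's moderated F test (Fgf14, Ptprn2 and Vipr2), where 6580 of 13982 genes tested (47.1%) did, a share close to that of the 6. The labelled cell type is mature oligodendrocytes; the summed level of 8 oligodendrocyte markers was 4744 to 9241 RPKM in cortex and 29672 to 49270 in spinal cord, and that of 8 neuronal markers was 8271 to 14644 in cortex and 3894 to 6191 in spinal cord. In bulk cortex the neuronal sum was 7326 to 7800 RPKM in rTg4510- and 8742 to 9943 in miR-142 wild-type libraries. The oligodendrocyte sum was 3561 to 5557 and 1058 to 1438 there, in tables normalized separately. Transcripts of neurons were thus present in all regions, and the TRAP cortex values are not those of oligodendrocytes alone. The part of neurons in the values of the 6 genes was not tested.

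Fgf14 had 77.0 to 134 RPKM in cortex with a median of 93.4 (n = 7), 21.6 to 124 with 70.2 in white matter (n = 6), 41.6 to 154 with 96.8 in cerebellum (n = 6), and 8.76, 9.99, 18.4, 33.0 and 14.7 in the 5 spinal cord libraries. Spinal cord was low in every library, and among these values only 1 white matter library, at 21.6, lay in its range. Against spinal cord the log2 fold change was 2.63 ± 0.37 in cortex (adjusted p = 2.47e-06), 2.01 ± 0.39 in white matter (0.000278) and 2.50 ± 0.39 in cerebellum (4.19e-05). The order was cortex, cerebellum, white matter and spinal cord, and the neighbours cortex and cerebellum (adjusted p = 0.823) and cerebellum and white matter (0.539) did not differ beyond their spread. The F test gave an adjusted p of 7.04e-06.

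Ptprn2 had 49.0 to 68.1 RPKM in cortex with a median of 55.0, 17.6 to 63.1 with 32.2 in white matter, 4.995 to 20.3 with 14.5 in cerebellum, and 23.95, 27.1, 10.8, 13.8 and 14.4 in spinal cord. Cortex lay above all cerebellum and spinal cord libraries and overlapped with white matter. Cortex was above cerebellum by 2.15 ± 0.33 on the log2 scale (adjusted p = 1.08e-05) and above spinal cord by 1.72 ± 0.34 (0.000205), and white matter was above cerebellum by 1.42 ± 0.34 (0.00482). White matter was above spinal cord by 0.98 ± 0.35 (0.0384), a call that did not hold with other scalings (adjusted p = 0.0960 with median-of-ratios) or without any 1 of spinal cord replicates 5, 7 and 8 (0.0996, 0.0685 and 0.0708) or white matter replicates 2, 6 and 7 (0.101, 0.0711 and 0.0964). Cortex and white matter (0.190) and spinal cord and cerebellum (0.397) did not differ beyond their spread.

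Vipr2 was found mostly in cerebellum, at 4.30 to 10.9 RPKM with a median of 6.83. It was listed at 0 in 4 of 7 cortex libraries, where 0 reads allow up to 0.0925 to 0.394 RPKM (3 reads), and at 0 in 3 of 6 white matter libraries. Single libraries stood out elsewhere: cortex replicate 7 at 2.86, white matter replicate 6 at 2.13 and spinal cord replicate 3 at 7.69 RPKM, while the others of these regions were at or below 0.516. Against cerebellum, the log2 fold change was -3.19 ± 0.56 in cortex (adjusted p = 7.82e-05) and -3.30 ± 0.58 in white matter (0.000163), and cerebellum was above spinal cord by 2.51 ± 0.61 (0.00346). Spinal cord, cortex and white matter, next in the order, did not differ beyond their spread (0.358 and 0.939). With quantile normalization, the log2 fold change against spinal cord was -1.505 in cortex (0.0169) and -1.59 in white matter (0.0239), both past the threshold. Of the 9 olfactory bulb genes, Tbx21 was at 0 in all 24 TRAP libraries. In cerebellum, Eomes was at 1.76 to 20.6 RPKM, Calb2 at 13.7 to 52.6 and Pbx3 at 20.2 to 45.6. There Scgn was at 0 in every library, Cdhr1 at 0 to 0.0968 RPKM and Dlx1 at 0 to 0.931. Doc2g was at 1.10 to 6.37 RPKM and Th at 1.16 to 4.57 in cerebellum. In spinal cord, where Vipr2 was low in all but replicate 3, Calb2 was at 37.0 to 125 RPKM and Pbx3 at 27.1 to 106. The 9 genes summed to 58.5 to 104 RPKM in cerebellum, 27.1 to 58.9 in cortex, 26.3 to 67.4 in white matter and 93.0 to 233 in spinal cord, and their part in the Vipr2 values was not tested.

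Wdr60 had 6.95 to 29.0 RPKM in cortex with a median of 16.2, 4.13 to 16.4 with 6.98 in white matter, 1.56 to 9.51 with 5.92 in cerebellum, and 5.01, 14.4, 18.3, 2.86 and 6.03 in spinal cord. The regions overlapped widely, and cortex was above cerebellum by 1.53 ± 0.47 on the log2 scale (adjusted p = 0.0172), which was 1.25 (0.0613) without cerebellum replicate 3. Its F test stood at an adjusted p of 0.0504, at the edge of the threshold, and passed it in 16 of 33 alternatives. Esyt2 had medians of 41.6, 44.4, 30.3 and 30.8 RPKM in cortex, white matter, cerebellum and spinal cord, and Ncapg2 of 4.63, 2.53, 3.29 and 2.96. Their regions overlapped, and their F tests gave adjusted p values of 0.248 and 0.434. No neighbours in the order of either gene differed beyond their spread.

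Over the region pairs, 0 of the 6 genes passed the test between cortex and white matter (limma), where Ptprn2 was the 1 with an unadjusted p under 0.05 and 5.39% of all genes passed, and 3 between cortex and cerebellum (24.6%). Of the 6, 2 passed between cortex and spinal cord (43.7%), 2 between white matter and cerebellum (9.76%), 2 between white matter and spinal cord (27.7%) and 2 between cerebellum and spinal cord (22.6%). In the 3 comparisons with spinal cord the median of all genes was 0.26 to 0.33 on the log2 scale, and median-of-ratios scaling shifted it by -0.13 to -0.18. The levels of Esyt2 in TRAP cortex spread from 21.4 to 90.6 RPKM. Of the tested neighbours, 10 of 11 on chromosome 12 and 7 of 15 on chromosome 14 differed between TRAP regions in the F test that 47.1% of all genes passed.

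**Figure D4:**
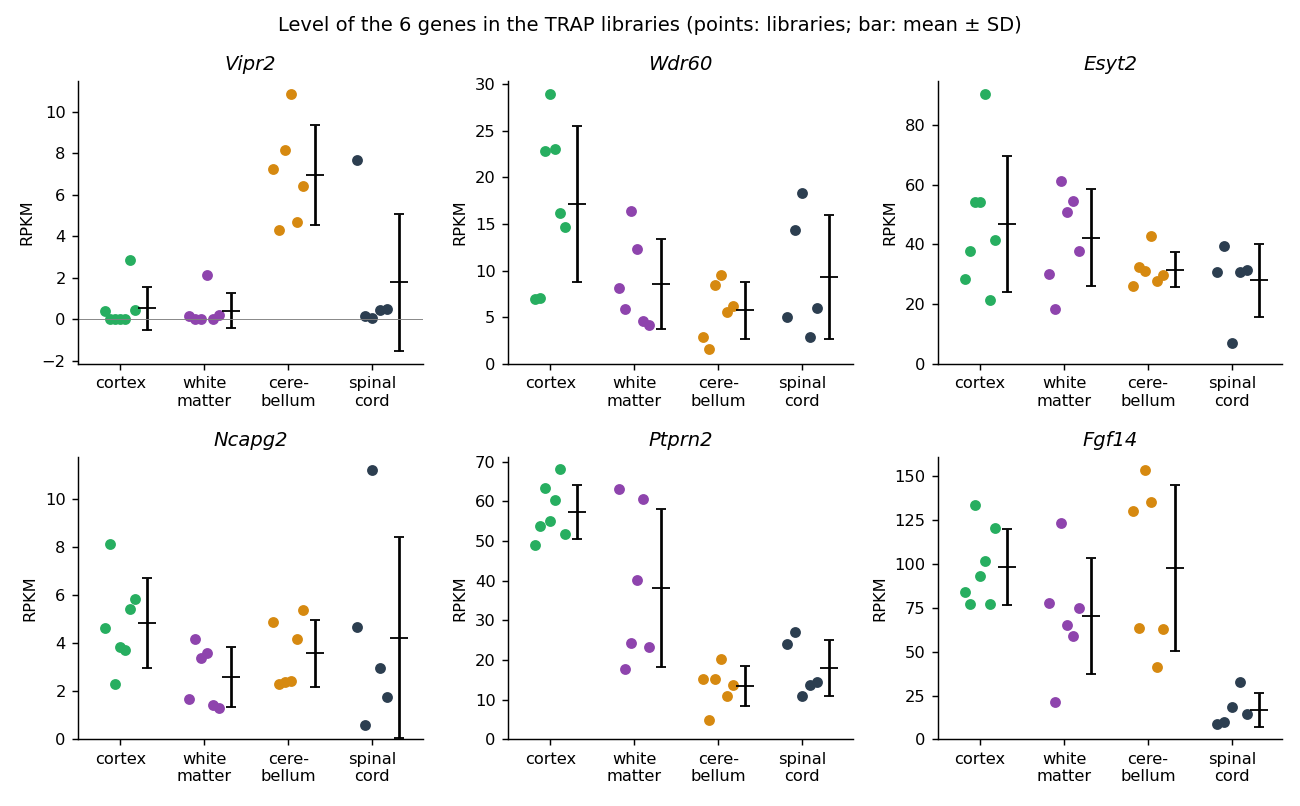
Level in RPKM (vertical axes) of the 6 genes in TRAP libraries of cortex (7), white matter (6), cerebellum (6) and spinal cord (5); points are libraries and bars are the mean ± SD. Fgf14 is low in all spinal cord libraries (8.76 to 33.0 RPKM), Vipr2 is above 4 RPKM in all cerebellum libraries and in 1 of spinal cord, and Esyt2 and Ncapg2 overlap between regions.

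Over the 24 TRAP libraries, the genes most like each of the 6 by Pearson correlation of log2(RPKM + 0.5) are given as a description, since the libraries share regions and depth. Those of Fgf14 were Gabrd (0.94), Stxbp5l (0.92) and Ascc3 (0.92), and those of Ptprn2 were Map2 (0.93), Grin2b (0.92) and Pdzrn3 (0.91). Those of Vipr2 were B3gnt5 (0.83), Pkib (0.82) and Pappa (0.81), those of Wdr60 Cpt1c (0.88), Ovgp1 (0.86) and Atp9b (0.86), those of Esyt2 Rfx1 (0.85), Adgrl3 (0.82) and Ints10 (0.82), and those of Ncapg2 Bean1 (0.73), Ipo4 (0.71) and Copg2 (0.70). Among the 5 neighbours on chromosome 12 the highest correlation was 0.58, between Wdr60 and Ptprn2, and Esyt2 and Ncapg2 were at -0.43.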

How the data were processed

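RNA was sequenced from 42 mouse libraries. Per the labels, cortex libraries were made with the Illumina TruSeq Stranded kit and RiboZero Gold and read as 75 bp pairs, and TRAP libraries with NuGEN amplification and RiboZero and read as 50 bp pairs. The submitters' processing notes name STAR, HTSeq and the build mm10; versions, gene models and strand settings are not given in the sources used here. The authors deposited RPKM in 3 tables. Of 18782 genes above 0, all 18782 gave whole reads within 0.005 from the steps of the values, taking the smallest depth that does so, and 82.9% of the implied lengths lay within 5% of the GENCODE vM21 coding length. Reads from untranslated ends may still count. Depth was 3.26 to 36.8 M reads, and read counts and their limits cover counting error only.

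RPKM are not counts, so log2(RPKM + 0.5) was tested with limma 3.58.1 in R 4.3.3 (trend and robust options) over all genes with at least 0.5 RPKM in at least 3 rTg4510, 5 TRAP or 4 miR-142 libraries, 1 fit per table, with Benjamini-Hochberg adjustment and a threshold of 0.05. No 2 libraries of a group were duplicates. The fits were tested on simulated data. After ±, RPKM carry an SD and log2 fold changes an SE.

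The genes, the lists, the tests and the rule for naming other genes were chosen with earlier results of these data known. The rule named the 6 genes; within 3 Mb of them, genes with an adjusted p under 0.05 and the nearest tested gene on each side; from each list, up to 4 genes with the smallest adjusted p under 0.05, or 2 with the highest mean; and the 3 genes most like each of the 6 over TRAP libraries. The lists of olfactory bulb genes (Tbx21, Eomes, Cdhr1, Doc2g, Th, Calb2, Scgn, Dlx1, Pbx3) and striatal genes (Drd1, Drd2, Adora2a, Tac1, Penk, Rgs9, Pde10a), and the alternatives that use the former or leave out library pairs of the rTg4510 table, were added after the data were seen. Of the olfactory bulb genes 8 were tested and 0 passed, and of the striatal genes 7 and 0. Alternatives were other pseudocounts (0.1 and 1), no filter, other scalings, library weights, voom, each library left out, and a replicate block. Positions came from GENCODE vM21 and promoters from RefSeq, both on GRCm38; 96.7% of genes tested in the rTg4510 table had a position. Python 3.11.15, numpy 2.4.6, pandas 2.3.3 and matplotlib 3.10.9 were used.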

Additional observations from a re-analysis of the deposited data

Results flagged for a closer look

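Of 42 combinations of gene and group of 4 to 10 libraries, 6 held a library far from the others of its group, its gap to the nearest library over the group's range being above Dixon's 95% critical value, which chance passes in about 1 in 20 groups. Vipr2 accounted for 4 of them: 6.88 RPKM in miR-142 wild-type replicate 4, with the others at 0.234 to 0.722; 2.86 in TRAP cortex replicate 7, with the others at 0 to 0.454; 2.13 in TRAP white matter replicate 6, with the others at 0 to 0.195; and 7.69 in TRAP spinal cord replicate 3, with the others at 0.0700 to 0.516. Esyt2 was low, at 6.95 RPKM, in TRAP spinal cord replicate 5, with the others at 30.8 to 39.6. Fgf14 was at 102 RPKM in miR-142 null replicate 3, with the others at 106 to 107, a small gap in a tight group.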

How the results depend on the processing

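The number of the 6 genes that passed in rTg4510+ against rTg4510-, 5, ranged from 2 to 5 when 1 library was left out, Esyt2 and Ptprn2 being called in each case. It was 2 with the olfactory bulb genes in the model and 1 (Esyt2) without rTg4510+ replicates 2 and 3. The count of all genes called, 1037, was 5018 with library weights, 89 with the olfactory bulb genes in the model, 38 without rTg4510+ replicates 2 and 3, 3487 without rTg4510- replicate 2 and rTg4510+ replicate 1, and 264 to 2323 with 1 library left out. Between TRAP white matter and spinal cord, 1 of the 6 genes instead of 2 passed with median-of-ratios scaling, library weights and voom, and 1 to 2 with 1 library left out. Replicate numbers of the TRAP titles were not taken to pair the libraries: over 31 same-numbered pairs the correlation of deviations was -0.24 to 0.27 with a median of 0.06, against -0.02 over 184 other pairs, 13 of the 31 were over 0.1, and 7 of 24 libraries correlated best with their own number. With the replicate block, 1 gene passed between white matter and spinal cord (Ptprn2 had an adjusted p of 0.0689), 3 between cortex and spinal cord, and 4 in the F test, where Wdr60 was then called (adjusted p = 0.0168, limma). Between cortex and white matter 754 genes were called, and 2589 with library weights, 1158 with quantile normalization, 1355 without spinal cord replicates 4 and 7, and 296 to 1028 with 1 library left out. Library weights gave 7522 instead of 3444 genes between cortex and cerebellum, 2352 instead of 1364 between white matter and cerebellum, and 2461 instead of 3869 between white matter and spinal cord. Between miR-142 null and wild type, 65 genes were called, and 0 with a pseudocount of 1, median-of-ratios scaling or the olfactory bulb genes in the model, 2 with no filter, 32 with voom and 1297 with library weights. None of the 6 genes was called in the 3 miR-142 contrasts in any alternative. Within 1 Mb instead of 3 Mb, 0 neighbours passed instead of 1, with fewer genes tested, and with runs of 4 genes the lowest run that held 1 of the 6 genes ranked 2 instead of 1. No result changed sign past the threshold. The cause of these changes was not tested. Depth limits Vipr2, with median reads of 2 in TRAP spinal cord, 1.5 in white matter and 0 in cortex, and 20 to 26 reads per rTg4510- library.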
